A study of Mus musculus with 12 samples.

Results

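miR-3075 is a mouse microRNA whose hairpin gives a pair of mature names, mmu-miR-3075-5p and mmu-miR-3075-3p, written below without the species prefix. Both were looked up by name in a table of 1965 mature mouse miRNAs, so the members are 2 of 1965, and both were present. The table holds small RNA sequencing of exosomes, the small vesicles that cells release, from primary mouse hepatocytes of 3 groups with 4 libraries each. The donor mice were lean (treatment given as control), had 4 weeks of high-fat feeding (HFD), or had 16 weeks of it. All hepatocytes were at passage 0 in Williams' E medium with 10% FBS and glutamax, and RNA was taken with a Zymo kit. Whether the serum was freed of its own vesicles, the strain, sex and age of the mice, and whether each library stands for its own mouse or culture are not given in the sources used here, so p-values measure only the spread between these libraries.

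A miRNA guides a silencing complex to messenger RNAs that pair with its seed, bases 2 to 8 counted from its 5′ end. The precursor folds back on itself, and each side of the fold can give a mature strand, named 5p or 3p after its side. A miRNA inside an intron can be made from the transcript of its host gene. Hepatocyte exosomes are studied in obesity because their miRNAs can enter other cells and alter insulin signalling there. In the work on this series miR-3075 was followed for its rise in early obesity, with the fatty acid hydroxylase gene Fa2h as its target. Neither insulin response nor target RNA is measured in this table.

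The hairpin is shown because the members are its arms, with the 3p strand in capitals (RefSeq, GRCm38.p6, chr14:25534439-25534523, plus strand, 5′ to 3′). In the mature strand below it, the capitals mark the seed of miR-3075-3p.
Mir3075 hairpin: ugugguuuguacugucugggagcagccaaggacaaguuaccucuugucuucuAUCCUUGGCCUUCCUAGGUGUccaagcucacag
miR-3075-3p: aUCCUUGGccuuccuaggugu

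The 85-base hairpin lies in the gene Zmiz1 (chromosome 14, 25459185 to 25666743), which encodes a transcriptional coregulator. All 5 GENCODE M21 transcripts of Zmiz1 that span the hairpin have it in an intron, and 0 have an exon over it. That intron runs from 25502760 to 25536744, and the hairpin lies 2222 bases before the next exon. In the protein-coding transcripts it is between exons 2 and 3. A predicted fold (RNAfold) had a minimum free energy of -34.8 kcal/mol, with 18 of the 21 bases of miR-3075-3p paired to the other side. Among 1737 other mature mouse miRNAs, 0 shared the seed of miR-3075-3p, and the closest match of any of them to a stretch of the hairpin differed by 4 edits. The RefSeq sequences used held no mature entry for miR-3075-5p, the arm whose levels follow, so its seed was not compared. Within 1 Mb of the hairpin GENCODE has 1 other miRNA gene, Gm23701.

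The table gives each miRNA in CPM, its reads scaled to a common library total. Nearly all values in a column are whole multiples of 1 step, so the reads behind them could be recovered, and all 12 values of miR-3075-5p were whole reads of their own library. The depth was low and unequal. Lean libraries held 13748 to 30430 miRNA reads, those of 4 weeks 2352 to 4477, and those of 16 weeks 20538 to 37596. A single read was thus worth 32.9 to 72.7 CPM in lean libraries, 223 to 425 CPM in 4-week libraries and 26.6 to 48.7 CPM in 16-week libraries. The most abundant miRNA, miR-101b-3p, took 54.8% to 70.2% of the CPM in lean, 15.9% to 36.8% at 4 weeks and 52.4% to 66.3% at 16 weeks. The hepatocyte miRNA miR-122-5p, which dominates liver tissue, had 3 reads in all 12 libraries.

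The arms differed in whether they were found. mmu-miR-3075-5p, with 58 reads in total, was above 0 in all 12 libraries, as were 58 of the 1965 miRNAs. mmu-miR-3075-3p was listed at 0 in every library, where 3 reads over the 207621 reads of all libraries would stand at 14.4 CPM. The table also lists at 0 several miRNAs that most cells make, such as let-7b-5p and miR-26a-5p, so the 3p arm can only be said to be listed at 0. Of 29 other hairpins with both arms listed and 29 to 116 reads in the more abundant arm, 16 also had the other arm at 0, a range that was set around the 58 reads of miR-3075-5p after its values were seen.

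In lean exosomes miR-3075-5p stood at 145, 164, 83.6 and 136 CPM, from 2, 5, 2 and 2 reads. At 4 weeks of HFD it stood at 1795, 4252, 2010 and 1499 CPM, from 7, 10, 9 and 5 reads. At 16 weeks it stood at 26.6, 205, 299 and 97.4 CPM, from 1, 6, 7 and 2 reads. All 4 libraries at 4 weeks lay above all 8 of the other groups in CPM, and the lean and 16-week libraries overlapped. The highest 4-week value came from the shallowest library, replicate 2 with 2352 miRNA reads, and the lowest value of all from the deepest, 16-week replicate 1.

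Mean levels were 132 ± 34.6 CPM in lean exosomes, 2389 ± 1259 CPM after 4 weeks of HFD and 157 ± 120 CPM after 16 weeks (SD, n = 4 each). With the reads of a group summed, the level was 133 CPM in lean (11 of 82781 reads, exact Poisson 95% interval 66.3 to 238), 2204 CPM at 4 weeks (31 of 14063 reads, 1498 to 3129) and 144 CPM at 16 weeks (16 of 110777 reads, 82.6 to 235). These intervals cover counting error only.

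**Figure D1:**
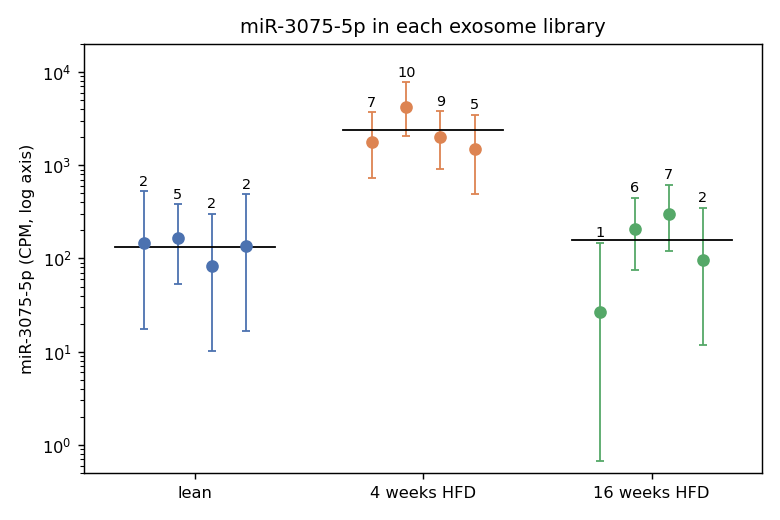
miR-3075-5p in CPM (log axis) in each library of the lean, 4-week HFD and 16-week HFD groups. Points are libraries in replicate order with exact Poisson 95% intervals, digits above them are reads, and black lines are group means; the 4-week points sit between 1499 and 4252 CPM, above all others.

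In reads rather than CPM the gap was smaller. A library held 5 to 10 reads of miR-3075-5p at 4 weeks, against 2 to 5 in lean, so the lowest 4-week and the highest lean library had the same number. The 4-week libraries gave 2.82 times the reads of the lean ones from 0.17 times the total. At the summed lean level, the 14063 reads at 4 weeks would have held 1.87 reads of miR-3075-5p, and they held 31. The depth thus moves with the 4-week group, and the count tests below take each library's total into account.

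The first comparison was of 4 weeks of HFD with lean. miR-3075-5p rose to 2389 CPM at 4 weeks, against 132 CPM in lean, a ratio of 18.04 between the means. On log2(CPM + 1) the change was 4.08 (SE 0.87, 95% interval 2.22 to 5.94; limma, Benjamini-Hochberg adjusted p = 0.00469 over 267 miRNAs tested). An exact permutation test of the difference of mean CPM gave p = 0.0286, the smallest that 70 assignments allow (2-sided, adjusted p = 0.0429 over 3 comparisons). miR-3075-5p was chosen with its rise in these data known, and this permutation p makes no allowance for that choice. Of the 267 miRNAs tested, 12 had every 4-week CPM above every lean and every 16-week CPM. In edgeR's quasi-likelihood test on the recovered reads the log2 change was 3.57 (adjusted p = 0.000134 over 72 miRNAs tested).

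Other miRNAs were called as well. limma called 9.36% of the tested miRNAs higher and 11.6% lower at 4 weeks, and edgeR called 25% higher and 30.6% lower. Among those called higher, miR-3075-5p had the 9th largest change of 25 in limma and the 3rd largest of 18 in edgeR. The median change of all tested miRNAs was -1.27 on the log2(CPM + 1) scale in limma, and over the settings that kept all libraries it ranged from -2.04 (CPM recomputed without miR-101b-3p) to 0.29 (DESeq2). Of the 31 miRNAs called lower by limma, 21 were at 0 in all 4 of the shallow 4-week libraries, and of the 25 called higher, 2 were at 0 in all lean libraries. The part of depth in those calls was not tested. miR-3075-5p was above 0 in every library, with 2 to 5 reads in lean ones, and the part of depth in its own call was not tested either.

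The size of the rise depended on the scaling. CPM recomputed without miR-101b-3p were 2058 to 5388 at 4 weeks and 280 to 436 in lean, again without overlap. Their means were 3191 ± 1552 at 4 weeks and 347 ± 70.5 in lean (SD, n = 4 each), a ratio of 9.21, and the limma change was 3.11 on the log2 scale (adjusted p = 0.0222). A ratio within a library needs no scaling, and it was formed with each of 57 other miRNAs that were above 0 in all libraries. For 43 of the 57 (75.4%), miR-3075-5p over the other miRNA was higher in every 4-week library than in every lean library, and for the remaining 14 the groups overlapped. All 57 ratios share the same few reads of miR-3075-5p, so they are not independent, and the like share for other miRNAs was not computed.

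The second comparison was of 16 weeks of HFD with lean, and here the call was not made. The means were 157 CPM at 16 weeks and 132 CPM in lean, a ratio of 1.19. The change on log2(CPM + 1) was -0.19 (SE 0.87, 95% interval -2.05 to 1.68; limma adjusted p = 0.966), in edgeR it was 0.18 (adjusted p = 0.866), and the exact permutation test gave p = 0.686 (2-sided, n = 4 each). limma called 1.12% of miRNAs higher and 1.5% lower in this comparison, and edgeR 18.1% and 16.7%. Of the 16-week libraries, 2 (replicates 2 and 3) lay above all lean ones and 1 (replicate 1) below them. The interval of the difference holds changes in either direction. The sign of this difference turned with the tool, and also without 16-week replicate 1, the library with 1 read (limma change 0.50, adjusted p = 0.819).

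The third comparison was of 16 with 4 weeks of HFD, and it tests directly whether the early and late levels differ. miR-3075-5p fell to 157 CPM at 16 weeks, against 2389 CPM at 4 weeks. The log2 change was -4.27 (SE 0.87, 95% interval -6.13 to -2.40; limma adjusted p = 0.0063), and in edgeR it was -3.39 (adjusted p = 0.000197). All 4 libraries at 16 weeks lay below all 4 at 4 weeks (exact permutation p = 0.0286, 2-sided, adjusted p = 0.0429). This permutation p, too, makes no allowance for the choice of miR-3075-5p. limma called 4.12% of miRNAs lower and 6.37% higher, and edgeR 20.8% in each direction. Of the 17 miRNAs limma called higher, 10 were at 0 in all 4-week libraries. By fold miR-3075-5p stood 259th of 267 tested from the top, and by p it was 9th. Without miR-101b-3p in the CPM the 16-week mean was 398 ± 303 and the 4-week mean 3191 ± 1552 (SD over 4 libraries), and the limma change was -3.35 (adjusted p = 0.0214). The ratio of miR-3075-5p to another miRNA was lower in every 16-week than in every 4-week library for 45 of the 57 miRNAs. These ratios again share the reads of miR-3075-5p.

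**Figure D2:**
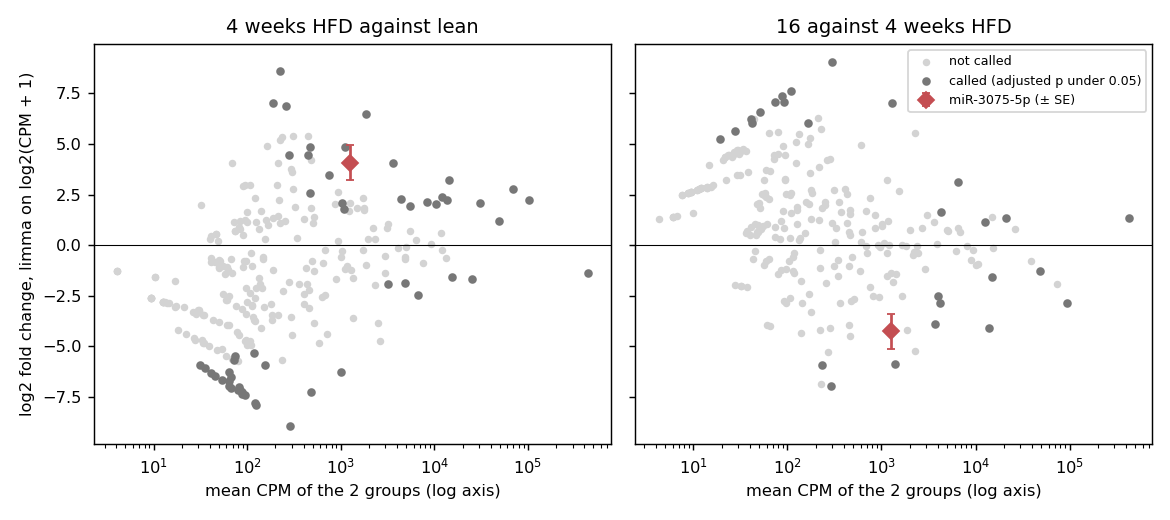
limma log2 fold change on log2(CPM + 1) (vertical axis) against the mean CPM of both groups (horizontal log axis) for the 267 miRNAs tested, at 4 weeks of HFD against lean and at 16 against 4 weeks. Dark points are called at an adjusted p under 0.05, and the red diamond is miR-3075-5p with its SE, at 4.08 and at -4.27.

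By rank within a library, miR-3075-5p was the 102nd to 124th most abundant miRNA in lean, the 22nd to 55th at 4 weeks and the 76th to 182nd at 16 weeks. The number of miRNAs above 0 also differed, at 230 to 296 in lean, 124 to 176 at 4 weeks and 246 to 281 at 16 weeks. Ordered by mean CPM the groups ran lean, 16 weeks, 4 weeks, and the neighbours lean and 16 weeks did not differ beyond their spread.

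Both a rise at 4 weeks and a fall from 4 to 16 weeks were called by limma for 8 miRNAs, miR-3075-5p among them, and by edgeR for 9. Called so by both tests were 6, which are miR-3075-5p, miR-1843b-3p, miR-501-3p, miR-5099, miR-6931-5p and miR-7242-3p. The 2 comparisons share the 4-week libraries, so a high value there enters both. Of the 267 miRNAs tested, 12 (4.49%) had every 4-week CPM above every lean and every 16-week CPM.

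The miRNAs whose levels ran most like those of miR-3075-5p were found by Pearson's r over the 12 libraries of log2(CPM + 1), among 266 others that were tested. The libraries fall into groups and share depth and scaling, so r is a description. Since the choice used all 12 libraries, the shared direction of those named follows from it, and their own tests are no independent support. The 6 highest were miR-6931-5p (0.96), miR-5099 (0.92), miR-7242-3p (0.92), miR-200a-3p (0.91), miR-1843b-3p (0.90) and miR-1981-5p (0.86), against a median r of -0.30. The mature sequences of those that RefSeq holds are shown to let their seeds, in capitals, be compared (5′ to 3′).
miR-6931-5p: uGGGGUGGggagugggggacu
miR-7242-3p: uGGCAGCUcggcucuacucugg
miR-200a-3p: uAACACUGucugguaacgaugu
miR-1843b-3p: cCGAUCGUuccccuccauac
miR-1981-5p: gUAAAGGCugggcuuagacguggc

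The 5 seeds differ from each other. The closest pair among the 5 differed by 11 edits, and the closest of them to the Mir3075 hairpin by 8. They also come from different places in the genome. miR-6931-5p maps to chr11:102999896-102999916 (minus strand), miR-7242-3p to chr9:67729499-67729520 (minus), miR-200a-3p to chr4:156054911-156054932 (minus), miR-1843b-3p to chr1:159340400-159340419 (plus) and miR-1981-5p to chr1:184822465-184822488 (minus), all in GRCm38.p6.

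miR-6931-5p followed miR-3075-5p most closely. It stood at 364, 361, 209 and 682 CPM in lean, at 6412, 12329.9, 3797 and 4798 CPM at 4 weeks and at 53.2, 547, 1069.5 and 974 CPM at 16 weeks. Both miRNAs were highest in 4-week replicate 2 and lowest in 16-week replicate 1. Its deviations from the group means also went with those of miR-3075-5p (r = 0.85 over 12 libraries, a description, since a library's values share its depth). The same r was 0.72 for miR-200a-3p, 0.59 for miR-7242-3p, 0.52 for miR-5099, 0.24 for miR-1843b-3p and 0.22 for miR-1981-5p. For each read of miR-3075-5p there were 2.81 reads of miR-6931-5p at 4 weeks (87 to 31) and 2.82 in lean (31 to 11), and 3.94 at 16 weeks (63 to 16). Its log2 change was 4.05 at 4 weeks against lean (limma adjusted p = 0.00519) and -3.88 at 16 against 4 weeks (adjusted p = 0.0149).

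The others shared the direction at different levels, with every 4-week mean above the lean and 16-week means. Abundant miR-5099 averaged 168083 ± 57641 CPM at 4 weeks and 37479 ± 16784 CPM in lean, and it averaged 21953 ± 2689.7 CPM at 16 weeks (SD, n = 4 each). Its log2 change at 4 weeks of 2.24 (limma adjusted p = 0.000647) was 1.05 after quantile normalization, where the call was lost (adjusted p = 0.175). miR-1843b-3p averaged 26007 ± 6065 CPM at 4 weeks and 2933 ± 1252 CPM in lean, and 1524 ± 398 CPM at 16 weeks (SD, n = 4 each). miR-7242-3p averaged 7347 ± 2796 CPM at 4 weeks and 1544 ± 582 CPM in lean, and its call at 4 weeks was lost when CPM were recomputed without miR-101b-3p (limma adjusted p = 0.0841). miR-200a-3p, a miRNA of epithelial cells, rested on 8 reads: it was at 0 in all lean libraries and at 223 to 900 CPM at 4 weeks. miR-1981-5p averaged 1689 ± 534 CPM at 4 weeks and 483 ± 98.1 CPM in lean, with a limma change of 1.77 that passed (adjusted p = 0.038) but missed the threshold in 26 of 42 other settings.

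**Figure D3:**
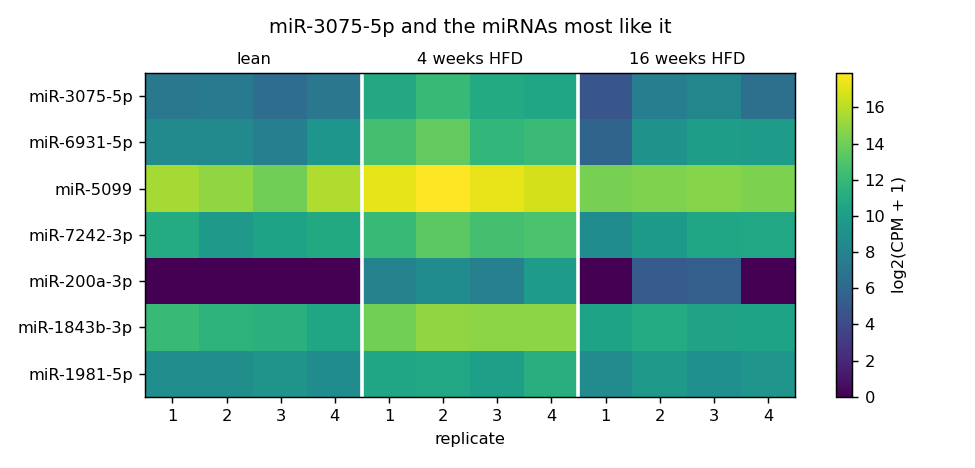
log2(CPM + 1), as colour, of miR-3075-5p and the 6 miRNAs with the highest r to it (rows) in the 12 libraries (columns, by group and replicate). The 4 middle columns, from 4 weeks of HFD, are brighter than the columns of the other groups in every row.

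miR-3075-5p was also set beside 23 other miRNAs known for insulin sensitivity or hepatic metabolism. Of the 24 names, 9 were above 0 in any library and 5 passed the filter on low values (miR-3075-5p, miR-155-5p, miR-182-5p, miR-192-5p and miR-802-3p). The values of miR-155-5p are not whole reads in every library and did not enter edgeR. Its lean and 16-week values look exchanged between those groups, so its lean level and the direction of its difference between them are in doubt. Among the 5, miR-3075-5p and miR-182-5p were called higher at 4 weeks than in lean and miR-802-3p lower (limma; 9.36% and 11.6% of all tested), with a median log2 change of 1.31, against -1.27 over all tested miRNAs. The 5 include miR-3075-5p itself, whose rise was known when the list was made. With 100 CPM added in place of 1, the median over all tested was -0.13. miR-182-5p, a miRNA linked to lipid metabolism, stood at 1976 ± 1504 CPM at 4 weeks and 224 ± 272 CPM in lean (SD, n = 4 each; limma adjusted p = 0.0424). miR-802-3p, from the hairpin of a miRNA that is induced in obese liver, stood at 1425 ± 691 CPM at 4 weeks and 4951 ± 1694 CPM in lean (adjusted p = 0.017). From 4 to 16 weeks 1 of the 5, miR-3075-5p, was called lower and 1, miR-802-3p, higher. At 16 weeks against lean limma called 0 of the 5, where it called 1.12% of all tested higher and 1.5% lower. Of the 5, 4 (all but miR-3075-5p) had an unadjusted p under 0.05 there in limma. Among the 4 was miR-155-5p, whose direction is in doubt. edgeR called 3 of them higher (miR-182-5p, miR-192-5p and miR-802-3p), where it called 18.1% of all tested higher. miR-690 and miR-223-3p, which other work on obesity followed in exosomes of macrophages and neutrophils, were listed at 0. As with the 3p arm, no more than that can be said of them.

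Markers of other cell types were uneven, and their part in the level of miR-3075-5p was not tested. Since miRNAs that most cells make, such as let-7b-5p, are also listed at 0, a marker at 0 does not show that its cell type was absent. Of 5 epithelial and cholangiocyte markers, 3 were above 0 and miR-200b-3p and miR-200c-3p were at 0, and their sum per library was 223 to 1026 CPM at 4 weeks, against 0 to 136 CPM in lean and 26.6 to 299 CPM at 16 weeks. A single read was worth 223 to 425 CPM at 4 weeks, so sums of this size there are few reads. Over all 12 libraries miR-200a-3p had 8 reads, miR-429-3p 16 and miR-141-3p 2. Of 9 leukocyte and macrophage markers 4 were above 0, and miR-223-3p, miR-142a-3p, miR-142a-5p, miR-150-5p and miR-146b-5p were at 0. Summed, they stood at 7065 to 38219.6 CPM in lean libraries, 22336 to 44678 CPM in 4-week libraries and 42107 to 68517 CPM in 16-week libraries, with overlap between the 4-week and 16-week groups. The highest means among the 4 were those of miR-146a-5p and miR-511-3p. All 6 stellate and fibroblast markers were at 0, and of 3 endothelial markers 1 was above 0, at no more than 26.6 CPM. Of the 3 red blood cell markers, miR-144-3p was at 0 and miR-486a-5p has values that are not whole reads of their library. Their sum was 65.3 to 1026 CPM at 4 weeks, 26.6 to 134 CPM in lean and 0 to 68.2 CPM at 16 weeks. The lean and 16-week values of miR-486a-5p look exchanged between those groups. Its lowest lean value is that of 1 read in 16-week replicate 1, and its highest 16-week value that of 1 read in lean replicate 4. The lean and 16-week sums are therefore not to be compared. At 4 weeks the sum was miR-486a-5p alone, and miR-451a had 3 reads in all 12 libraries. Of 9 hepatocyte names 7 were above 0, led by miR-101b-3p, and their sum was lower at 4 weeks (161067 to 369220.5 CPM) than in lean (551019 to 706669 CPM) and at 16 weeks (535836 to 675551 CPM), without overlap. That sum is nearly all miR-101b-3p, which averaged 252344 CPM at 4 weeks and 619422 CPM in lean.

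Few markers passed the filter on low values. At 4 weeks against lean limma called 1 of 4 leukocyte markers higher (miR-146a-5p), with a median log2 change of 0.53. The 4 include miR-155-5p, whose lean values are in doubt. It called 1 of 2 epithelial markers higher (miR-200a-3p), with a median of 4.41, and 2 of 3 hepatocyte markers lower (miR-101b-3p and miR-802-3p), with a median of -1.36. The third hepatocyte marker tested, miR-192-5p, stood at 571 ± 222 CPM at 4 weeks and 238 ± 120 CPM in lean (SD, n = 4 each), a log2 change of 1.31 that did not pass (adjusted p = 0.205). Over all tested miRNAs, 9.36% were called higher and 11.6% lower.

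The rise at 4 weeks and the fall to 16 weeks were called in all 18 alternatives to the limma fit as reported, and in all 12 fits that left out 1 library. The log2 change at 4 weeks lay between 3.11 and 4.09 in the 18 alternatives and between 3.76 and 4.26 with 1 library left out.

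**Figure D4:**
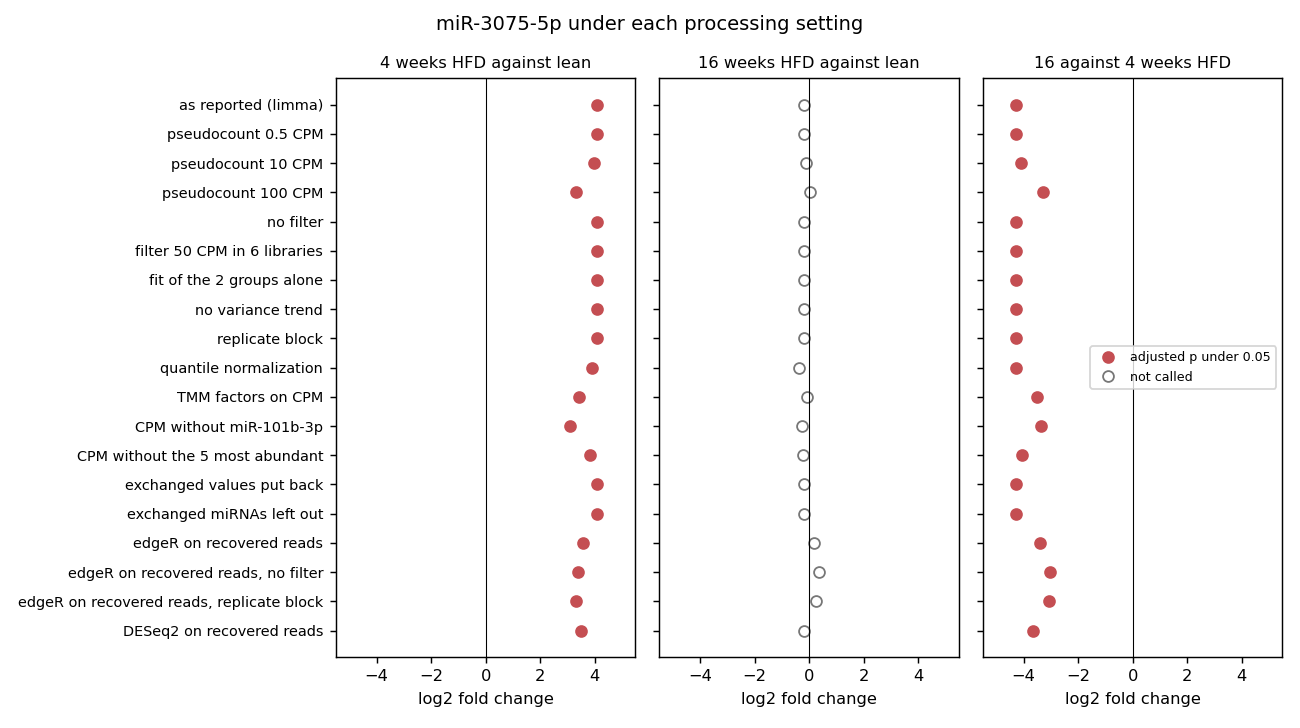
log2 fold change of miR-3075-5p (horizontal axis) under the reported limma fit and 18 other settings (rows), in 3 comparisons. Filled points pass an adjusted p of 0.05 and open points do not; the points at 4 weeks against lean lie between 3.11 and 4.09, and those at 16 weeks against lean lie around 0 on both sides.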

How the data were processed

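Small RNA libraries from 12 hepatocyte exosome preparations were analysed. The authors deposited 1 table of CPM for 1965 mature miRNAs; cutadapt 1.13, edgeR 3.16.5 and the mm10 build are named per the submitters' processing notes, while the aligner and counting rule are not given in the sources used here. Within a column, 2617 of 2664 values above 0 (98.2%) were whole multiples of 1 step (relative tolerance 1e-06), which gave the reads; the exceptions fall in 7 miRNAs. miRNAs with at least 10 CPM in at least 4 libraries (267) were tested with limma 3.58.1 on log2(CPM + 1), all groups in 1 fit without a block, with Benjamini-Hochberg adjustment and a threshold of 0.05. Since 1 read was worth at least 26.6 CPM, this filter in effect asks for 1 read in 4 libraries. For low miRNAs a fold change on this scale depends on the added 1 CPM, most of all where a group is at 0. The median change at 4 weeks against lean was -1.27, and it was -0.13 with 100 CPM added instead. edgeR 4.0.16 (quasi-likelihood) and DESeq2 1.42.0 on the recovered reads were alternatives, as were other pseudocounts, filters, scalings and leaving out each library. Both tests were tested on simulated data with unequal depths like these. There, in comparisons with the 4-week group, limma on CPM called unchanged miRNAs more often than its threshold allows, mostly ones at 0 in a whole shallow group, so its counts of calls over all miRNAs are to be read with that limit. Exact permutation tests used scipy 1.17.1, and the fold RNAfold 2.7.2. The 6 miRNAs most alike were named by Pearson's r over the libraries, and list members where called, up to 4 a list, or for the highest mean level. The members and lists were chosen with earlier results of these data known. No libraries were identical, and no column was left out.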

Additional observations from a re-analysis of the deposited data

Results flagged for a closer look

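The effect of 16 weeks of HFD differed from that of 4 weeks, each against the same lean libraries, for miR-3075-5p and 5 of the 6 miRNAs most like it. Those 6 were chosen for likeness over these same libraries, so their shared direction follows from the choice and is no independent support. The difference, tested directly as 16 against 4 weeks in limma, was -4.27 on the log2 scale for miR-3075-5p (adjusted p = 0.0063) and -3.88 for miR-6931-5p (adjusted p = 0.0149). It was -2.88 for miR-5099, -2.84 for miR-7242-3p, -5.94 for miR-200a-3p and -4.09 for miR-1843b-3p. The miR-200a-3p value rests on 8 reads and missed the threshold in 9 of 27 other settings.

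In 16-week replicate 2, miR-1843b-3p stood at 2118 CPM and was apart from the other 16-week libraries by 0.904 of the group's range, past Dixon's 95% limit for 4 samples. In each of the 3 groups the rule was applied to miR-3075-5p (also without miR-101b-3p), the 6 miRNAs most like it and library totals. Chance alone sets apart a sample in about 1 in 20 such sets. The 4-week values of miR-3075-5p, with replicate 2 highest, reached 0.814 and did not pass that limit.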

How the results depend on the processing

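For miR-3075-5p both calls, the rise in the 4-week group and the lower level in the 16-week group, held in 18 of 18 other settings and in 12 of 12 fits without 1 library, in limma and in edgeR alike. At 16 against 4 weeks the log2 change ranged from -4.28 to -3.05 over those settings. At 16 weeks against lean no setting made a call, and the sign turned to 0.028 with a pseudocount of 100 CPM, 0.18 in edgeR, 0.35 in edgeR with no filter and 0.27 in edgeR with the replicate block; without 1 library the values, limma and edgeR together, ran from -0.65 to 0.53. The cause was not tested. Replicate numbers did not pair the libraries (correlations of same-numbered deviations from -0.07 to 0.06); with the replicate block limma gave 4.08 for the rise (adjusted p = 0.011) and -4.27 for the fall (adjusted p = 0.0183).

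The difference of median CPM was 1762 for the rise and -1752 for the fall (exact permutation p = 0.0571 each). Without 1 library the difference of mean CPM ran from 1636 to 2553 and from -2529 to -1611, where 4 against 3 libraries allow no exact permutation p below 0.0571; at 16 weeks against lean it ran from -22.8 (without 16-week replicate 3) to 68.2. At 16 weeks against lean miR-6931-5p ran from -0.27 to 1.16 without 1 library, and miR-1981-5p turned to -0.14 in DESeq2.

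The number of miRNAs called moved more. Over 42 settings those higher at 4 weeks than in lean numbered 13 to 36 (25 as reported) and those lower 12 to 50 (31). At 16 weeks against lean they numbered 2 to 18 higher (3) and 1 to 26 lower (4), and at 16 against 4 weeks 10 to 30 higher (17) and 6 to 21 lower (11). With 1 to 10 reads of miR-3075-5p in a library, depth limits every level given here.

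The edgeR fits with the replicate block or without 1 library, and a repeat of the likeness ranking with a pseudocount of 100 CPM or without miR-101b-3p, were added after the data were seen; in each repeat 5 of the 6 miRNAs most like miR-3075-5p were kept, and miR-1981-5p was not.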
